A study of Mus musculus with 31 samples.

Results

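Retinal ganglion cells, the projection neurons of the retina, were followed here through 10 genes measured in whole embryonic eyes: Atoh7, Pou4f1, Pou4f2, Isl1, Ebf1, Ebf3, Sncg, Nefl, Nefm and Gap43. Probes were taken where the array's annotation gives one of these symbols and the spot is not a control, which gave 1 probe per gene, 10 of the 55681 probes and 10 of the 32006 gene names on the array. The transcript accession of all 10 probes carries the same symbol in RefSeq. The probes of Isl1 and Nefm are spotted 10 times on each array and the others once. All 10 were well above background on all 31 arrays, none was saturated, and all 10 passed the minimum signal used for testing, so every member was tested in every comparison.

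The eyes came from E13.5 mouse embryos in 4 groups: 3 WT females (numbered 1, 2 and 4), 3 WT males, 11 Ftx-/- females (Ftx KO female) and 3 Ftx-/Y males (Ftx KO male). Ftx is an X-linked long noncoding RNA gene near Xist, and the targeted allele also loses the microRNAs encoded in one of its introns. The line was kept on a C57BL/6N background, the pigmented layer was dissected away, and only eyes of normal appearance were taken, so that mutant eyes with visible defects are not represented. Nothing in the labels says whether the eyes of a group came from separate litters, and p-values measure only the spread between these eyes. The study asked whether loss of Ftx alters gene expression in the female eye and in the male eye.

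Ganglion cells are the first neurons born in the vertebrate retina and their axons form the optic nerve. The basic helix-loop-helix factor Atoh7 makes progenitors competent to become ganglion cells, and the homeodomain factors Pou4f2 and Isl1 then act side by side to run the differentiation programme, with Pou4f1 and the helix-loop-helix factors Ebf1 and Ebf3 among the genes expressed downstream. Sncg (gamma-synuclein), the neurofilament subunits Nefl and Nefm and the growth cone protein Gap43 belong to the differentiated neuron and its growing axon. At this stage the retina consists mainly of dividing progenitors with newly born ganglion cells at its inner side. Several of these genes are not exclusive to the retina, since Isl1, Pou4f1, the neurofilaments and Gap43 are also expressed in peripheral sensory neurons.

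All 10 genes are autosomal. In mm9, the build of the files, the Atoh7 probe lies at chr10:62563126-62563185, the Pou4f1 probe at chr14:104862743-104862802, the Pou4f2 probe at chr8:80957048-80957107, the Isl1 probe at chr13:117088774-117088833 and the Ebf1 probe at chr11:44818438-44818497. The Ebf3 probe lies at chr7:144385490-144385549, the Sncg probe at chr14:35183497-35183556, the Nefl probe at chr14:68705638-68705698, the Nefm probe at chr14:68738193-68738252 and the Gap43 probe at chr16:42248714-42248773. Nefl and Nefm are neighbours, with 32.5 kb between their probes. The files do not say which exon or untranslated part a probe matches.

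For 7 of the 10 members RefSeq promoter sequence was at hand (GRCm38.p6), and the 250 bases before the annotated start are shown for Atoh7, Pou4f1 and Sncg, because these genes were lower in every Ftx-/- female eye and higher in every Ftx-/Y male eye than the WT mean of their sex. Capitals mark matches to CANNTG, the E-box letters that helix-loop-helix factors such as Atoh7 bind, and to CCCNNGGG, the core letters bound by Ebf factors. Both read the same on either strand, and no match to the one overlapped a match to the other.
Atoh7, chr10:63099535-63099784, plus strand: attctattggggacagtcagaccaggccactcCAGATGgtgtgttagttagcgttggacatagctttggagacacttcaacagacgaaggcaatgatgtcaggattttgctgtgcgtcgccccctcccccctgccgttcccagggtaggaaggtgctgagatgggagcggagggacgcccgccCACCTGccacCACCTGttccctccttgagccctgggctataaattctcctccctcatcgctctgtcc
Pou4f1, chr14:104468000-104468249, minus strand: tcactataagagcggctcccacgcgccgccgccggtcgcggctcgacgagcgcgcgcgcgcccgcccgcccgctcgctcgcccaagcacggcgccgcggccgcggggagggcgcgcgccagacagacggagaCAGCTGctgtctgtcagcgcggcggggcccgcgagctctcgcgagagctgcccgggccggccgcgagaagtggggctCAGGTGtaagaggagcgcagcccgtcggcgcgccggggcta
Sncg, chr14:34374670-34374919, minus strand: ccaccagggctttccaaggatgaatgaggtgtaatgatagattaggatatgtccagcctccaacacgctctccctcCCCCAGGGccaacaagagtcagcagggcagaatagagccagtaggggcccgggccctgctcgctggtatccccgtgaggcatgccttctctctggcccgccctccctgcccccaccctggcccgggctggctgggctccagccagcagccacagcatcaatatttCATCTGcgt
Atoh7 held 3 E-boxes, Pou4f1 2 and Sncg 1, and Sncg also held 1 match to CCCNNGGG. Of the 32851 promoter windows of this length in the table, 66.2% hold CANNTG and 11.8% hold CCCNNGGG, so an E-box is common in any such window. Over the 8 windows that the 7 members have, 5 held CANNTG and 2 held CCCNNGGG. ATAATTAA, a Pou4f site searched on both strands, was found in 0 of these 8 and in 1.09% of all windows. These are matches of letters only.

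The 31 one-colour arrays hold 2 arrays for each Ftx-/- eye and 1 for every other eye, and the median background-subtracted intensity of the probe spots ranged from 34.2 to 75. The probe of Ftx, listed under an older name, gave a mean signal of 101 (SD 44.8, n = 3) for the WT females and 106 (SD 4.53, n = 3) for the WT males. It was lower in the mutants, at 21.7 (SD 10.997, n = 11) for the Ftx-/- females and 16.5 (SD 2.93, n = 3) for the Ftx-/Y males. The 10 retinal progenitor genes and the 15 lens genes of the marker lists were well above background, among them the lens crystallin Cryaa on all 31 arrays. The arrays were hybridised on 4 slides. Slide 1 carried the 6 WT eyes with the first Ftx-/Y eye, and slide 2 the remaining Ftx-/Y eyes with Ftx-/- eyes 1, 2 and 3. Of the other Ftx-/- eyes, numbers 4, 5, 6 and 7 were on slide 3 and numbers 8, 9, 10 and 11 on slide 4. WT females and Ftx-/- females therefore never met on a slide, and their difference can be told apart from that of the slides only through the Ftx-/Y males. Signals below are normalized linear intensities, which were compared between eyes for a given probe and never between probes, and tests are limma's with Benjamini-Hochberg adjustment over 14052 probes, with a call at an adjusted p under 0.05.

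In Ftx-/- females against WT females, Sncg, Ebf1, Pou4f1 and Atoh7 fell and Isl1 rose, while Pou4f2, Ebf3, Nefl, Nefm and Gap43 did not pass the test. In this comparison 35% of all probes tested were called, 16.8% higher and 18.2% lower, and the members gave 1 call higher and 4 lower of 10. The median log2 fold change was -0.14 over the members and -0.01 over all probes tested. The eyes of the groups were fully apart for 0 members, against 10.1% of all probes for higher and 11.4% for lower signals. In whole eyes, fewer cells of a type and less RNA per cell cannot be told apart.

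**Figure D1:**
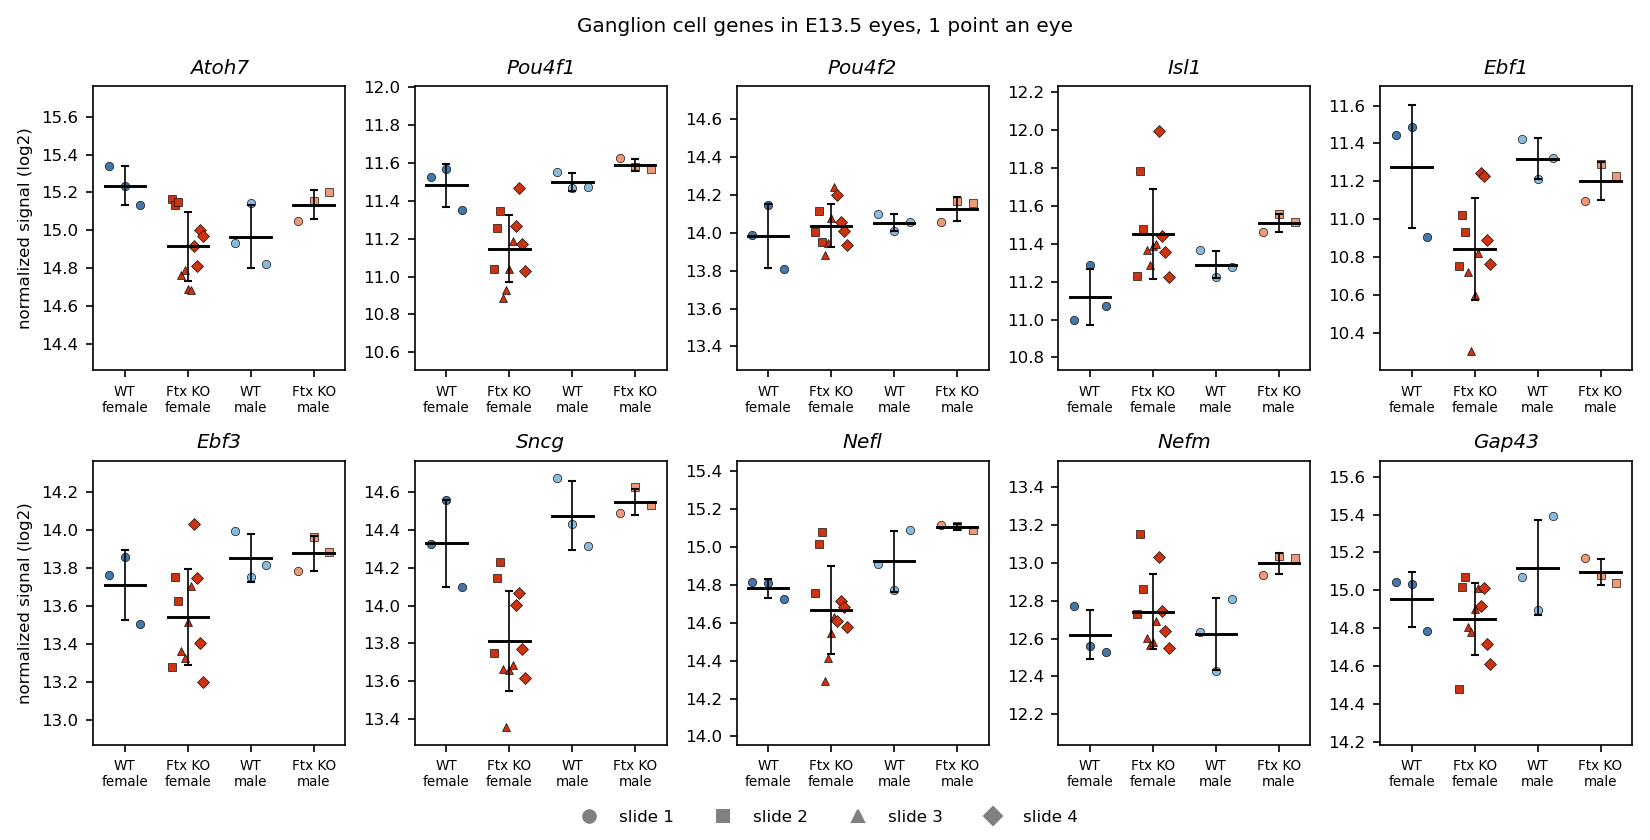
Normalized signal (log2) of the 10 genes in each of 20 eyes, by group; symbols give the slide, long bars the group mean and error bars the SD (n = 3, 11, 3 and 3), and every panel spans the same range on the vertical axis. Most Ftx-/- female eyes lie below the WT female eyes for Atoh7, Pou4f1 and Sncg and above them for Isl1, while Pou4f2 overlaps in all groups.

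Atoh7 signals were 41477, 38523 and 36013 in the WT female eyes and ran from 26328 through a median of 30885 to 36780 (11 eyes) in Ftx-/- females. Of the 11 mutant eyes 9 lay below every WT female eye, and the other two, of slide 2, lay just above the lowest of them. Atoh7, which opens the ganglion cell pathway, fell by 19.9% (log2 fold change -0.32 ± 0.10 SE, adjusted p = 0.0199).

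Pou4f2 is the factor on which ganglion cell differentiation and survival depend, and its signal was 16276, 18152 and 14362 in WT females and 15112 to 19358 with a median of 16465 in Ftx-/- females. The groups overlapped throughout, with 7 of 11 mutant eyes above the WT mean. The log2 fold change was 0.05 (95% confidence interval -0.10 to 0.21, adjusted p = 0.587).

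Pou4f1, the close relative of Pou4f2 that comes on in ganglion cells after it, had signals of 2947, 3036 and 2616 in WT females and 1894 to 2829 with a median of 2309 in Ftx-/- females. A single mutant eye, number 9, reached into the WT range and the other 10 lay below it. Pou4f1 fell by 20.7% (log2 fold change -0.33 ± 0.09 SE, adjusted p = 0.0106).

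Isl1, the partner of Pou4f2, went the other way. Its signal was 2047, 2499 and 2148 in WT females and 2390 to 4091 with a median of 2675 in Ftx-/- females. All 11 mutant eyes were above the WT mean and 9 were above every WT female eye, with eyes 8 and 2 far above the rest. The log2 fold change was 0.33 ± 0.12 SE (adjusted p = 0.0414).

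Ebf1 signals were 2783, 2870 and 1917 in WT females, where eye 4 stood well below the others, and 1265 to 2429 with a median of 1812 in Ftx-/- females. Of the mutant eyes 7 lay below the lowest WT eye and eye 5 was the lowest of all. Ebf1 fell by 26.0% (log2 fold change -0.43 ± 0.15 SE, adjusted p = 0.0328). Its relative Ebf3 had signals of 13905, 14876 and 11616 in WT females and 9417 to 16767 with a median of 11726 in Ftx-/- females, with broad overlap and a log2 fold change of -0.17 (95% confidence interval -0.45 to 0.11, adjusted p = 0.346).

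Among the proteins of the differentiated neuron, Sncg gave the largest difference of the 10 members. Its signal was 20549, 24151 and 17553 in WT females and 10492 to 19224 with a median of 13789 in Ftx-/- females. All 11 mutant eyes were below the WT mean and 9 were below every WT eye. Sncg fell by 30.0% (log2 fold change -0.52 ± 0.14 SE, adjusted p = 0.00993).

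The neurofilament and growth cone genes did not pass. Nefl, the light subunit on which the filament is built, had signals of 28781, 28755 and 27091 in WT females and 20066 to 34625 with a median of 25407 in Ftx-/- females. The 3 WT eyes were close together and the mutant eyes fell on both sides of them, 8 below and 2 above all WT eyes (log2 fold change -0.12, 95% confidence interval -0.37 to 0.13). Nefm, the medium subunit, ran from 5919 to 6987 in WT females and from 6005 to 9092 in Ftx-/- females (log2 fold change 0.12, interval -0.11 to 0.35). Gap43 ran from 28214 to 33748 in WT females and from 22826 to 34400 in Ftx-/- females (log2 fold change -0.11, interval -0.34 to 0.13). Not passing does not show that these 3 genes were unchanged, as each interval leaves room for a difference in either direction.

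The 5 calls depended on the WT female eyes and on how the slide entered the fit. Without WT female eye 1 the call of Sncg remained and the other 4 were lost. Without eye 2 that of Isl1 remained and the other 4 were lost, while without eye 4 that of Isl1 was lost. The share of all probes called also fell, from 35% to 22.4% without eye 1, 25.3% without eye 2 and 27.2% without eye 4. Of the Ftx-/- eyes, left out in turn after the data were seen, eye 2 alone changed the calls, ending that of Isl1. With the slide as a random block 0 members passed, with adjusted p between 0.0615 (Atoh7) and 0.216 (Isl1) for the 5 genes at log2 fold changes of -0.30, -0.30, -0.47, -0.49 and 0.32 for Atoh7, Pou4f1, Ebf1, Sncg and Isl1, and 17.5% of all probes passed. With the slide as a fixed block 0 members and 0.0783% of all probes passed.

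By slide, the median difference of the 10 members from the WT female mean was -0.09 on slide 2, -0.27 on slide 3 and -0.14 on slide 4, and the order of the slides was not the same for every member. The mean difference of Sncg from the WT female mean was -0.29 on slide 2 (3 eyes), -0.74 on slide 3 (4 eyes) and -0.46 on slide 4 (4 eyes) on the log2 scale. That of Atoh7 was -0.09, -0.50 and -0.31, and the 3 eyes of slide 2 lay nearest to WT (-0.07, -0.11 and -0.09). For Ebf1 the means were -0.38, -0.67 and -0.24 and for Pou4f1 -0.27, -0.47 and -0.25. Isl1 was higher on each slide, by 0.38, 0.24 and 0.39. Nefl changed sign between slides, with 0.17, -0.31 and -0.14, and Nefm gave 0.29, -0.01 and 0.12. Taking the eyes of slide 2, 3 or 4 alone against the WT females gave 2 called members (Pou4f1 and Isl1, with 35.2% of all probes called), 6 (the 5 above and Nefl, with 49.4%) and 2 (Atoh7 and Sncg, with 28.9%). Eyes 4, 5 and 11 had 9 of the 10 members below the WT mean and eye 2 had 4, and Isl1 was the highest of the 10 differences in each of the 11 eyes. Between the 2 arrays of an eye the SD was 0.04 to 0.09 log2 over the 10 members, and the SD between the 11 eyes was 3.01 to 5.68 times as large. Both arrays of an eye lay on the same slide, so only the SD between eyes includes differences between slides 2, 3 and 4.

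**Figure D2:**
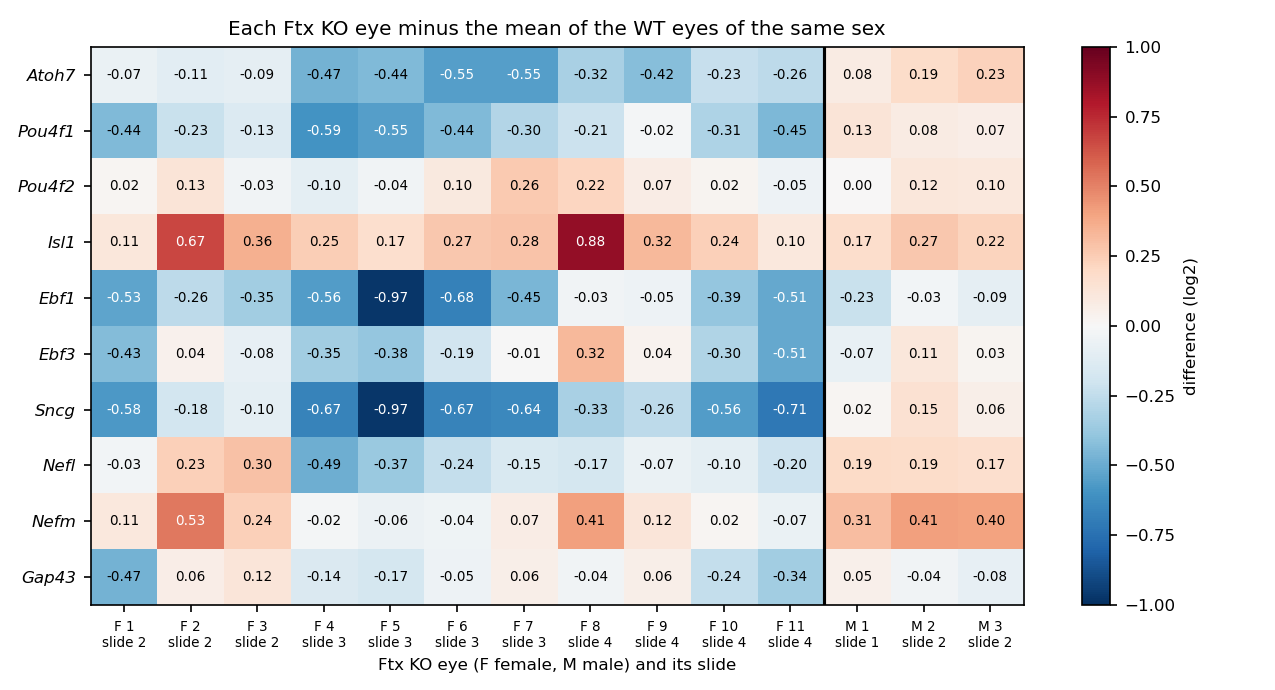
Difference (log2, colour and number) of each Ftx KO eye from the mean of the WT eyes of the same sex, with genes in rows and eyes in columns ordered by number, and the slide under each eye; the vertical line separates females from males. Atoh7, Pou4f1, Ebf1 and Sncg are below 0 in all 11 female eyes and Isl1 is above 0 in all of them, with the lowest values of Sncg and Ebf1 in eye 5 of slide 3.

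Markers of other cells moved with this comparison, and their part in the members' differences was not tested. The level of a list was taken as the mean log2 difference of its genes well above background from the WT female mean. The level of 11 mesenchyme genes (all of them well above background) ran from 0.72 to 4.01 with a median of 2.05 in the Ftx-/- eyes and from -0.69 to 0.53 in the WT female eyes. Without a minimum signal 8 of the 11 were called higher, where 7.77% of all probes were, and 8.05% were lower, among them 3 of the members (Atoh7, Pou4f1 and Sncg). The level of 15 lens genes ran from -0.82 to -0.21 in the Ftx-/- eyes and from -0.14 to 0.17 in WT females, and that of 8 of 9 pigment genes from -0.91 to 2.29 and from -0.22 to 0.18. The level of 10 retinal progenitor genes ran from -0.06 to 0.32 and from -0.01 to 0.01. Of 9 genes of Schwann cells and peripheral neurons, which share several members, 4 were not well above background, Foxd3 among them, and the level of the other 5 ran from -0.28 to 0.13 in Ftx-/- eyes and from -0.14 to 0.10 in WT females.

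In Ftx-/Y males against WT males no member passed the test, and 0.0213% of all probes did (0.0142% higher and 0.00712% lower). The members' log2 fold changes ran from -0.12 for Ebf1 to 0.37 for Nefm with a median of 0.08, against 0.00 over all probes, and 8 of 10 were positive. Nefm alone had an unadjusted p under 0.05, as had 11.8% of all probes. Its signal was 6357, 5510 and 7175 in WT males and 7830, 8389 and 8333 in Ftx-/Y males, and every mutant eye was above every WT eye (log2 fold change 0.37 ± 0.14 SE, adjusted p = 0.324). The groups were likewise apart, with the mutant higher, for Nefl, Isl1 and Pou4f1, which makes 4 members of 10 where 11.2% of all probes were apart in this direction, and 0 members in the other, where 9.39% were. Some marker levels were apart too, and their part was not tested. The erythroid level ran from 0.09 to 1.35 in Ftx-/Y and from -0.33 to -0.04 in WT males. That of other retinal neuron precursors ran from 0.24 to 0.29 and from 0.09 to 0.20, and that of retinal progenitors from 0.12 to 0.27 and from 0.02 to 0.10. The lens and mesenchyme levels overlapped.

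Nefl had signals of 30785, 27975 and 34866 in WT males and 35526, 35376 and 34887 in Ftx-/Y males, so that the mutant eyes lay close together and just above the highest WT eye (log2 fold change 0.18, adjusted p = 0.666). Isl1 had 2637, 2395 and 2483 in WT males and 2822, 3014 and 2923 in Ftx-/Y males (log2 fold change 0.22, adjusted p = 0.600). For Pou4f1 the signals were 3003, 2834 and 2847 in WT males and 3160, 3057 and 3034 in Ftx-/Y males (log2 fold change 0.09, adjusted p = 0.801). The gaps of Pou4f1 and Nefl between the groups were small beside the spread of the WT eyes.

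The other six genes overlapped between WT and Ftx-/Y males. Atoh7 signals were 31316, 36268 and 28929 in WT males and 33954, 36466 and 37677 in Ftx-/Y males (log2 fold change 0.17, 95% confidence interval -0.10 to 0.43). Sncg signals were 26125, 22094 and 20401 in WT males and 23010, 25260 and 23693 in Ftx-/Y males (log2 fold change 0.08, interval -0.30 to 0.45). Pou4f2, Ebf1, Ebf3 and Gap43 had log2 fold changes of 0.07, -0.12, 0.02 and -0.02, with adjusted p between 0.796 and 0.973. With 3 eyes in each group the standard errors were 0.09 to 0.19. Ftx-/Y eye 1, the only mutant eye that shared a slide with WT eyes, differed from the WT male mean by 0.31 for Nefm, 0.17 for Isl1, 0.19 for Nefl, 0.13 for Pou4f1, 0.08 for Atoh7, 0.05 for Gap43, 0.02 for Sncg and 0.00 for Pou4f2 on the log2 scale, and by -0.23 for Ebf1, below every WT male eye, and -0.07 for Ebf3.

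**Figure D3:**
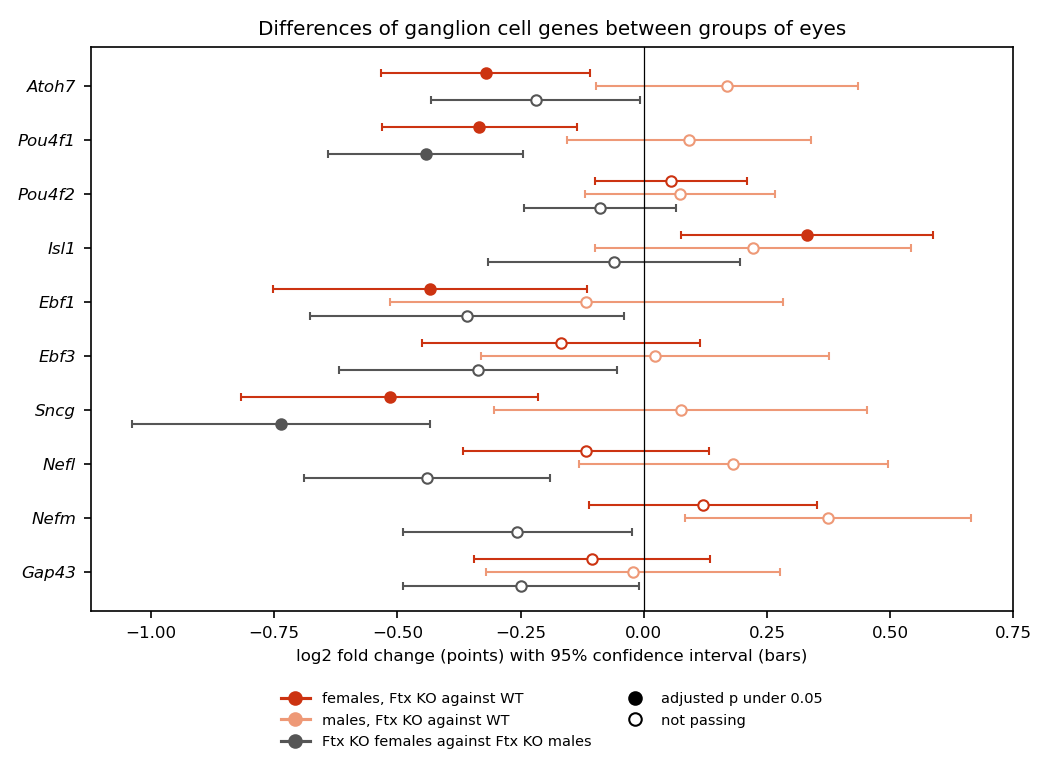
Log2 fold change of each gene with its 95% confidence interval in the female, the male and the mutant female against mutant male comparison; filled points passed an adjusted p of 0.05. In females 5 genes passed, in males 0, and between the sexes of the mutant Pou4f1 and Sncg.

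Between Ftx-/- females and Ftx-/Y males all 10 members had a lower mean in the females, and Sncg and Pou4f1 passed the test, where 1.96% of all probes were called and 1.42% were called lower. Sncg signals were 23010, 25260 and 23693 in the Ftx-/Y males, above all 11 Ftx-/- females, and the difference was -0.74 ± 0.14 SE (log2, adjusted p = 0.0162), a change of -39.9%. Pou4f1 signals were 3160, 3057 and 3034 in the males, again above all 11 females (log2 fold change -0.44 ± 0.09 SE, adjusted p = 0.0246). Nefl was also apart between the groups (log2 fold change -0.44, adjusted p = 0.0628), which makes 3 members of 10 apart in this direction against 2.75% of all probes (1.75% in the other direction, with 0 members). Without adjustment 8 members, all but Pou4f2 and Isl1, had a p under 0.05, as had 16.7% of all probes. The median over the members was -0.30 and over all probes 0.00.

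Markers of other cells also moved between the mutant sexes, and their part in the members' differences was not tested. Of 15 lens genes 5 were called lower in females, and the level of the list, from -0.82 to -0.21 in females and from -0.18 to -0.08 in males, did not overlap. Of 9 tested genes of other retinal neuron precursors 3 were lower, of 4 tested macrophage genes 2 were higher and of 6 tested erythroid genes 1 was lower. The mesenchyme level ran from 0.72 to 4.01 in females and from 0.49 to 1.56 in males, and of its 11 genes only 1 passed the minimum and was tested, without a call.

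The comparison of the mutant sexes has a within-slide value, because slide 2 holds 3 Ftx-/- and 2 Ftx-/Y eyes. There the difference of female minus male was -0.54 for Sncg, -0.37 for Ebf3, -0.36 for Pou4f1 and -0.36 for Ebf1, and all 3 female eyes were below both male eyes for these genes and for Nefl (-0.15) and Pou4f2 (-0.14), 6 of 10 members where 17.5% of all probes were apart in this direction. Atoh7 differed by -0.03 within the slide. In the limma fit within slide 2 no member passed (adjusted p = 0.376 for Sncg and for Pou4f1). With the slide as a random block Sncg passed (adjusted p = 0.0497) and Pou4f1 did not (0.0583), where 0.584% of all probes passed. Leaving out any Ftx-/Y eye ended both calls. The share of all probes called fell from 1.96% to 0.363%, 0.107% and 0.192% without Ftx-/Y eye 1, 2 and 3.

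WT females and WT males, which lay on the same slide, gave no called member, with 0.0712% of all probes called (0.0569% higher and 0.0142% lower in females). Atoh7 was the only member with an unadjusted p under 0.05, as had 10.2% of all probes, at 41477, 38523 and 36013 in females and 31316, 36268 and 28929 in males. The highest male eye was above the lowest female eye, and the log2 fold change of 0.27 ± 0.13 SE did not pass (adjusted p = 0.481). The other 9 members were lower in WT females by sign, with log2 fold changes from -0.17 (Isl1) to 0.00 (Nefm). The groups were apart for 0 members, against 10.1% of all probes for higher and 9.08% for lower signals.

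Whether the knockout effect differed between females and males was tested as an interaction, and no member passed, nor did any of the 14052 probes. The estimate was below 0 for 9 of 10 members, with Isl1 (0.11) as the exception, and 3 members had an unadjusted p under 0.05, Sncg at -0.59 ± 0.23 SE, Atoh7 at -0.49 ± 0.16 SE and Pou4f1 at -0.43 ± 0.15 SE. Of all probes 13.8% had an unadjusted p under 0.05, and in the female comparison above 44.9%. The calls in females and their absence in males are therefore not shown to differ between the sexes. The female comparison, the comparison of the mutant sexes and the interaction share the 11 Ftx-/- eyes.

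The fold limits of the study's methods, above 1.2 or below 0.8, were also combined with an unadjusted p under 0.05 from the limma fit, which is not the unequal-variance test that the methods pair them with. By this rule 4 members (Pou4f1, Isl1, Ebf1 and Sncg) and 26.7% of all probes passed in females, and Nefm and 5.69% of all probes in males. Between the WT sexes Atoh7 passed with 4.33% of all probes, and between the mutant sexes Pou4f1, Ebf1, Ebf3, Sncg and Nefl with 6.79%. For the interaction the rule took Atoh7, Pou4f1 and Sncg, and 10% of all probes. The methods' t-test alone, unadjusted, took 3 members in females, Atoh7, Pou4f1 and Isl1, and not Ebf1 or Sncg, where 40.5% of all probes passed it.

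Other genes of ganglion cells were read from lists, described by their counts. Of 18 other transcription factors of ganglion cells 10 were tested in the female comparison, with 3 called higher, 1 lower and a median log2 fold change of 0.09. With 35% of all probes called in this comparison, 16.8% higher and 18.2% lower, 4 of 10 is close to the background. Dlx2, a homeobox gene expressed in newborn ganglion and amacrine cells, had signals of 3239 to 4751 in WT females and 5165 to 7575 with a median of 6143 in Ftx-/- females, with no overlap (log2 fold change 0.62 ± 0.10 SE, adjusted p = 0.000279). Nhlh2, a neuronal helix-loop-helix factor, and Irx2, an Iroquois homeobox factor of ganglion cells, were higher by 0.34 and 0.29. Neurod1, a helix-loop-helix factor of several retinal neurons, was lower at 652 to 1038 against 1028 to 1163 (log2 fold change -0.37 ± 0.11 SE, adjusted p = 0.0132).

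Of 25 other axon and cytoskeleton genes 24 were on the array and 19 were tested, with 10 called lower, 1 higher and a median of -0.40, beside 18.2% lower, 16.8% higher and a median of -0.01 over all probes. Mapt, the microtubule protein tau, had signals of 11891 to 15956 in WT females and 5831 to 13726 with a median of 9423 in Ftx-/- females (log2 fold change -0.60 ± 0.19 SE, adjusted p = 0.0211). Syt1, a synaptic vesicle calcium sensor, fell by 0.54 and Tubb3, the neuronal tubulin, by 0.46 on the log2 scale. Basp1, a membrane protein of growth cones, Nrcam, an adhesion molecule of axons, and Islr2, a membrane protein of growing axons, fell by 0.45, 0.43 and 0.40. In males 0 genes of the 2 lists were called, and the medians were -0.02 and 0.01. With the slide as a random block 1 of the 4 calls among transcription factors (Dlx2, adjusted p = 0.00819) and 5 of the 11 calls among axon genes held, among them Tubb3 (0.0300), Basp1 (0.0265) and Nrcam (0.0396). With the slide as a fixed block 0 genes of either list passed, with adjusted p of 0.266 for Dlx2, 0.157 for Tubb3, 0.344 for Basp1 and 0.272 for Nrcam.

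Of 12 regulators of ganglion cell birth 9 were tested in the female comparison, with a median of -0.13. Dll1, a Notch ligand of newborn neurons, had signals of 1002 to 1250.4 in WT females and 1231 to 1388 with a median of 1328 in Ftx-/- females. The groups overlapped at their edges, all 11 mutant eyes were above the WT mean, and Dll1 rose by 0.27 ± 0.06 SE (log2, adjusted p = 0.00294). With the slide as a random block it did not pass (adjusted p = 0.0743).

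**Figure D4:**
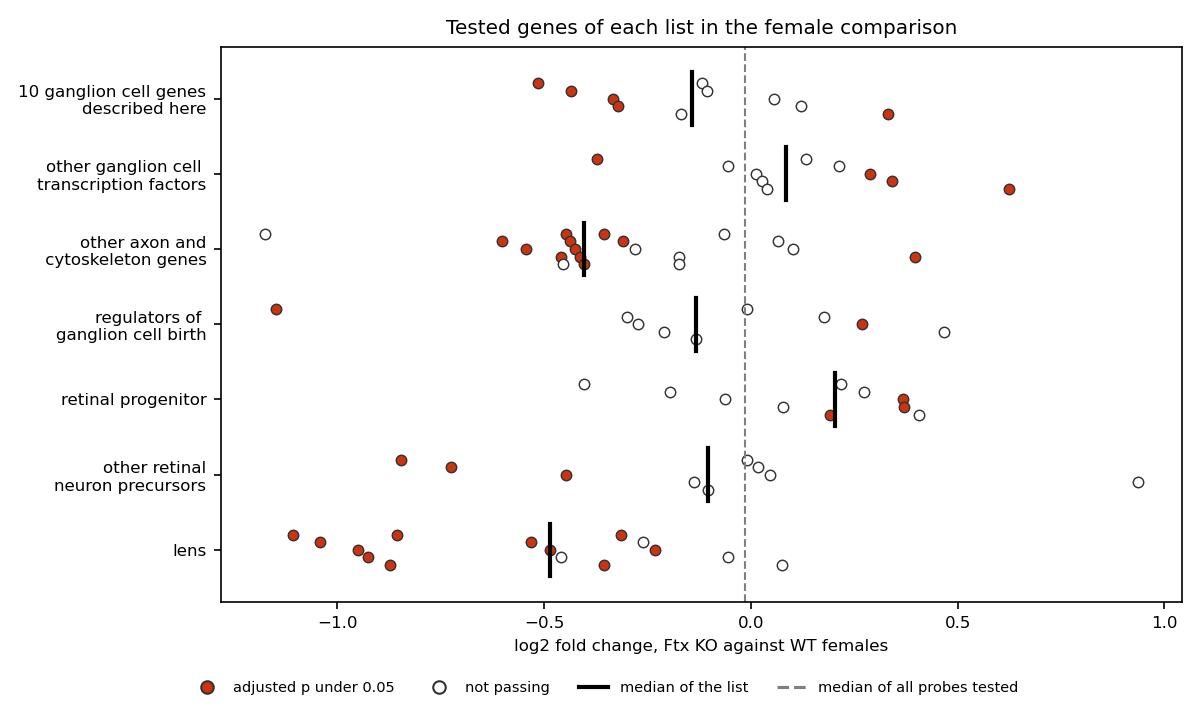
Log2 fold change of each tested gene in Ftx KO against WT females, by list, with filled points at an adjusted p under 0.05, thick lines at the list's median and the dashed line at the median of all probes tested (-0.01). The axon and cytoskeleton list (median -0.40) and the lens list (median -0.49) lie to the left, and the 10 ganglion cell genes (median -0.14) spread on both sides.

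Across the 20 eyes, after the mean of each group was taken out, the members moved largely together. Of 45 pairs 42 had a Pearson r above 0, with a median of 0.54. The eyes share slides, and the part of the slide in these values was not tested. Pairs of other probes were not examined, so moving together is not shown to be particular to the members. Among the 45 pairs the highest r were those of Isl1 with Ebf3 (0.85), Pou4f1 with Sncg (0.83) and Ebf1 with Sncg (0.82). The 3 pairs below 0 were those of Atoh7 with Gap43 (-0.31), Pou4f2 (-0.10) and Ebf3 (-0.02), while its other 6 pairs ran from 0.09 with Isl1 to 0.54 with Nefl. The other named genes most like the mean standardized value of the members were Rtn1, a reticulon of neuronal endoplasmic reticulum (r = 0.96), Chga, a secretory granule protein (0.96), Dscam, an adhesion molecule of retinal neurons (0.96), Nrn1, a neurite outgrowth protein (0.94), and Vstm2l (0.94), over 20 eyes. Of these Vstm2l was called lower in Ftx-/- females (log2 fold change -0.67 ± 0.18 SE, adjusted p = 0.00763), and the log2 fold changes of the others ran from -0.28 for Rtn1 to -0.16 for Nrn1 with adjusted p of 0.0968 or more.

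Within the 11 Ftx-/- eyes Pou4f2 was compared with each of the other 9 members. The largest relation was with Ebf3 (Pearson's r = 0.77, permutation p = 0.00585; Spearman's rho = 0.78, permutation p = 0.00665), and after adjustment over the 9 relations it did not pass (0.0526 and 0.0598). Without the 2 eyes farthest from the median of Pou4f2 it was 0.66. With the slide means taken out Ebf3 (r = 0.78), Nefm (0.69) and Isl1 (0.63) passed, with adjusted p of 0.029, 0.029 and 0.0388 by permutation within slides. Atoh7 was the only member with a negative r (-0.22, permutation p = 0.514), which was 0.11 without those 2 eyes and -0.56 with the slide means taken out (adjusted p = 0.154). No slide holds 6 Ftx-/- eyes, so no value within a slide was computed.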

How the data were processed

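RNA of 20 eyes was measured on 31 one-colour Agilent arrays. The authors deposited Feature Extraction intensities (version 11.0.1.1 per the file headers), background-subtracted and not normalized between arrays, and a series table of the same intensities. Here they were normalized with the quantile-spline method named in the study's methods, written out in R 4.3.3; 5751 flagged spots were left out, spots of a probe averaged, the 2 arrays of an eye averaged on the log2 scale, and probes whose WT female mean exceeded 500 (14052) tested with limma 3.58.1 (trend) in 1 fit over 20 eyes. Arrays of an eye correlated at 0.994 to 0.999. Precision is limited by how few eyes a group has. The members and gene lists were chosen with earlier results of these data known. From 3 lists of ganglion cell genes the text names the 3 called genes with the largest change and the 3 with the smallest adjusted p after them, and it names the 5 genes most correlated with the members; some genes of the lists are not reported here. Further lists covered endothelium (8 genes well above background, level -0.32 to 1.00 in Ftx-/- and -0.31 to 0.29 in WT females), macrophages (7, -0.11 to 0.54 and -0.12 to 0.12), erythroid cells (7, -0.27 to 0.87 and -0.21 to 0.14), muscle (5, -0.46 to 2.13 and -0.10 to 0.17) and other retinal neuron precursors (12, -0.32 to 0.10 and -0.04 to 0.02). Alternatives were other normalizations, filters, tests, slide blocks and left-out eyes, and the fit was tested on simulated data. The gene table and promoters are RefSeq's (GRCm38.p6).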

Additional observations from a re-analysis of the deposited data

Results flagged for a closer look

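Sncg, Atoh7 and Pou4f1 drew attention because every Ftx-/- female eye was below the WT female mean while every Ftx-/Y male eye was above the WT male mean. How many of all probes show this pattern was not counted. The interactions rest on the same differences by which these genes were picked. For Sncg the differences from the WT mean ran from -0.97 to -0.10 in 11 female eyes and from 0.02 to 0.15 in 3 male eyes (log2), and the interaction was -0.59 ± 0.23 SE (adjusted p = 0.273 with limma). For Atoh7 they ran from -0.55 to -0.07 and from 0.08 to 0.23, with an interaction of -0.49 ± 0.16 SE (adjusted p = 0.203). For Pou4f1 they ran from -0.59 to -0.02 and from 0.07 to 0.13, with an interaction of -0.43 ± 0.15 SE (adjusted p = 0.237). Mean Atoh7 signals were 38671 in WT females and 32171 in WT males, beside 31139 in Ftx-/- females and 36032 in Ftx-/Y males. Within slide 2 the Atoh7 difference of Ftx-/- females from Ftx-/Y males was -0.03 (log2). None of the 3 interactions passed, so a difference between the sexes is not shown. All WT eyes were on 1 slide and no Ftx-/- eye was on it, and the slide blocks are given below.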

How the results depend on the processing

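Of the female comparison's 5 calls (Ftx-/- against WT), the 75th percentile kept 4 (not Ebf1), array 2 alone kept 4 (not Isl1), and quantile normalization, normexp, the minimum over 4 groups, flagged spots kept, probes well above background, array 1 alone and no trend kept 5. In these settings 29.8% to 35.2% of all probes were called. The count moved to 1 with the series table (20.2% of all probes) and to 3 with no minimum (15.8%). It was also 3 with the 2 groups alone (31.3%) and with the methods' t-test unadjusted (40.5%), and 0 with that test after Benjamini-Hochberg (24.4%). With the slide as a fixed or random block it was 0 (0.0783% and 17.5%). With an eye left out it was 1 to 5 (22.4% to 36.6%), the Ftx-/- eyes having been left out after the data were seen. In the series table, which is not normalized, the median of all probes was 0.25 in this comparison, and Ebf3, Nefl and Gap43 changed sign without passing, so changes are reported from normalized values. Between the mutant sexes the 2 calls moved to 0 with the series table (0.0885% of all probes), the slide as a fixed block (0.0712%) and within slide 2 (0.0569%). The count was 1 with the slide as a random block (0.584%) and with the 2 groups alone (0.548%). It was 8 with the methods' t-test unadjusted (24.1%) and 5 with the fold limits and limma's unadjusted p (6.79%). Leaving out an eye gave 0 to 3 (0.107% to 3.02%), and Nefl joined without Ftx-/- eye 2 or 3. The fold limits with limma's unadjusted p gave 1 member in males (Nefm), 1 between WT sexes (Atoh7) and 3 for the interaction, and the methods' t-test unadjusted gave 2 in males (Isl1 and Nefm, with 9.08% of all probes). Chosen after seeing the data, slides 2, 3 and 4 alone gave 2, 6 and 2 calls in females, 0, 7 and 2 between mutant sexes and 0, 5 and 0 for the interaction, and slide 3 called 34.3% and 19.6% of all probes in the latter comparisons. The relations of Pou4f2 that passed rose from 0 to 3 with slide means taken out. The causes were not tested. With the replicate number as a block (replicate block) the female count was 2 (Pou4f1 and Ebf1, with 24.5% of all probes), that between mutant sexes 0 (0.135%) and the others 0. Same-numbered eyes correlated at -0.60 to 0.30 (median 0.05) and other pairs of eyes at -0.57 to 0.56 (median -0.02). Of 13 eyes 1 correlated best with its own number. The number gave no sign of pairing, but many same-numbered eyes lay on different slides, so these values cannot decide it. Each member has 1 probe, so averaging probes of a gene changes nothing. Signal over background limited no member, as all were well above it on every array.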
